A study of Homo sapiens with 16 samples.

Results

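Kidney organoids on culture day 29 (D29) were compared with organoids on day 25 (D25) by bulk RNA sequencing, to ask what changed in the last 4 days of the time course. The members are the 2 D25 and 2 D29 libraries of one collection (set 2), 4 of the 16 samples of the series, and all 27650 genes of its table were tested. The organoids were isolated spheroids grown from UM77-2, a single human embryonic stem cell line, and no agent was added to those of either day, so every value is from 1 genetic background. Set 2 was fed each day from day 17 on, and its 2 D21 libraries entered the same fit. An earlier collection (set 1), with 1 library each of D21, D25 and D29, was sequenced on another instrument and normalised in its own table, and serves here only for the direction of a change. A droplet library of D24 control organoids from the same series was used to see which cells held the transcripts. The paper describes this control as the vehicle control of a TNFα treatment.

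Kidney organoids recapitulate early nephrons. They hold podocytes, the glomerular epithelium whose foot processes are bridged by the slit diaphragm, and tubule segments that reabsorb filtrate through apical transporters and the endocytic receptors megalin and cubilin. They also hold stroma, which lays down collagens and proteoglycans, and cells that do not belong to the kidney, such as neurons and skeletal muscle. Skeletal muscle genes are switched on by the factors MYOD1 and myogenin (MYOG), which bind E-boxes. Proximal tubule genes are driven in part by the nuclear factor HNF4A.

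Values are log2(CPM + 1) as deposited, and a fold change is a difference of day means on that scale, given ± its standard error from limma, so that the change of genes with few reads is understated. A gene is called at an adjusted p under 0.05. Library totals ran from 19073609 to 30282025 reads in set 2. The D29 libraries stood further apart from each other than those of the other days. Over 17069 genes, the differences between the 2 replicates had an SD of 0.24 on D29, 0.18 on D25 and 0.18 on D21 (log2), and podocyte genes were lower in D29 replicate 2 than in replicate 1. For podocyte genes, and for some other lists and genes, values are therefore given with and without this library. Other changes are given from all libraries, and some of them also lean on it. In bulk RNA, fewer cells of a type and less RNA per cell cannot be told apart.

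In all, 346 genes were higher on D29 (1.25% of those tested) and 228 were lower (0.825%). Called or not, 12836 genes had a higher mean on D29 and 14814 a lower one. The counts of each list below are to be read beside these values. The median fold change was 0.85 among the genes called higher and -0.77 among those called lower, and -0.01 over all genes. A fold of at least 2 was reached by 132 of the genes called higher and 55 of those called lower. No called gene had overlapping libraries, a property that 47.6% of all genes tested shared. A further test on the recovered reads with edgeR called 834 genes higher (3.02%) and 502 lower (1.82%), and among them were 341 of the 346 and 227 of the 228. With limma the calls did not hold when either D25 library was left out, and edgeR then made fewer calls than in the full fit. Such a refit leaves D25 with 1 library, assumed to vary like the D21 and D29 libraries. Why the calls were lost was not tested. Without D29 replicate 1, limma called 2014 genes, and without D29 replicate 2 it called 192. The 12 largest rises and 12 largest falls described below were chosen in these same libraries, as called genes whose days do not overlap. Refits with 1 of the 6 libraries left out are therefore no separate check of them. The edgeR refits were added after the data were seen.

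Among the largest rises and falls were genes of muscle fibres and of tubule transport. The stretches of 250 bases before the transcription start of 2 muscle genes are shown here for the factor-binding letters they hold, with the matches in capitals. Sequences are from RefSeq on GRCh38.p14, read 5′ to 3′ on the strand of the gene. The E-box was searched as CANNTG and the CArG box, to which serum response factor binds, by its usual consensus, both on either strand. Positions count back from the start, so that -1 is the base before it. MYOG has an E-box at -13 to -8 (chr1:203086013-203086262, minus strand), and the skeletal actin gene ACTA1 has a CArG box at -97 to -88 (chr1:229434095-229434344, minus strand).
MYOG: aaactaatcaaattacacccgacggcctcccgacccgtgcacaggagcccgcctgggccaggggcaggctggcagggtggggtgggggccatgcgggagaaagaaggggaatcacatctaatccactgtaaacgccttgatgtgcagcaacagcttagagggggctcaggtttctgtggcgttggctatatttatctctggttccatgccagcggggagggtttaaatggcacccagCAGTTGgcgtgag
ACTA1: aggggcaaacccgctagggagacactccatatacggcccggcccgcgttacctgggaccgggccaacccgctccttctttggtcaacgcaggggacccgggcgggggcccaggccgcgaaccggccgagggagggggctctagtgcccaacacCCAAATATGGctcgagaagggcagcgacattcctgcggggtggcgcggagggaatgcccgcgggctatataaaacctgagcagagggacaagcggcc

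Over windows from 250 bases before to 50 after the start, 73.1% of 27305 genes held an E-box of these letters. All 8 of the muscle genes called higher that have such a window (8 of 14) held one. The narrower E-box CAGCTG, which myogenic factors prefer, was found in 21.1% of all genes and in 2 of these 8, and MYOG was not among the 2. A CArG box was found in 1.60% of all genes and in 2 of these 8, ACTA1 and the cardiac actin gene ACTC1. A match of letters is a description of these windows, and binding was not measured.

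Of the 26 skeletal muscle genes measured, 14 were called higher and 0 lower with limma (16 and 0 with edgeR), and 25 had a higher mean on D29. Their median fold change was 0.83, against -0.01 over all genes. MYOG, the factor that starts the fusion and differentiation of myoblasts (chromosome 1, 203083129 to 203086012), stood at 1.85 and 1.91 in the D25 libraries and at 4.61 and 4.02 in the D29 libraries. Its rise of 2.44 ± 0.29 was the largest of the 12 (adjusted p = 0.0133, limma). The days do not overlap in any of the 12, and the sign in set 1 is the same, by the rule that named them. It rested on 49 and 61 reads on D25 and on 710 and 420 reads on D29.

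Fibre genes of several kinds were among those called. MYL11, the fast skeletal regulatory light chain, stood at 1.22 and 0.68 on D25 and at 3.45 and 2.88 on D29, a rise of 2.21 ± 0.25. MYL1, a fast essential light chain (chromosome 2, 210290150 to 210315174), went from 9 and 10 reads on D25 to 135 and 119 on D29, or from 0.58 and 0.56 to 2.45 and 2.41 on the log2 scale (adjusted p = 0.00599, limma). ACTC1, the sarcomeric actin of heart and developing skeletal muscle, stood at 3.61 and 3.77 on D25 and at 5.97 and 5.61 on D29. In these 3 genes replicate 1 was the higher of the D29 libraries. The embryonic myosin heavy chain MYH3 rose by 1.86, ACTA1 by 1.85, the determination factor MYOD1 by 1.77, the acetylcholine receptor subunit CHRND by 1.45 and the giant spring protein TTN by 1.35. Smaller rises that were called include the troponins TNNC1 (0.92), TNNT1 (0.85), TNNT3 (0.81) and TNNI2 (0.70), and the intermediate filament gene DES (0.70). Not all of the list moved. The slow troponin TNNI1 changed by 0.16 (adjusted p = 0.694, limma) and NEB, the nebulin of thin filaments, by 0.24 (adjusted p = 0.429, limma). The satellite cell factor PAX7 stood at 2.01 and 2.71 on D25 and at 3.66 and 3.48 on D29 and was called by edgeR (adjusted p = 0.0133) but not by limma (adjusted p = 0.0599). The median of the list lay between 0.79 and 0.98 with any 1 D25 or D29 library left out. The days do not overlap in 23 of the 26 genes (47.6% of all genes), so leaving out 1 library could not reverse these 23.

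Genes of the tubule made up many of the largest falls. Over 4 lists of proximal and distal genes, 18 of 60 measured members were called lower and 0 higher. SLC34A1, the main phosphate carrier of the proximal tubule brush border (chromosome 5, 177379235 to 177398848) stood at 7.44 and 7.42 on D25 and at 4.99 and 5.04 on D29, with replicates far closer than the days. This was a fall of 2.41 ± 0.18 on the log2 scale (-2.41, adjusted p = 0.00599, limma). Among the 23 transporters and brush border genes of the proximal tubule, 7 were called lower and 0 higher (edgeR 9 and 0), with a median of -0.53. They include the sulphate carrier SLC13A1 (-1.29), the organic anion transporter SLC22A6 (-1.01), the phosphate carrier SLC34A3 (-0.93), the lactate carrier SLC5A12 (-0.86) and the brush border enzymes GGT1 (-0.81) and DPEP1 (-0.55).

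HNF4A, a factor that holds the proximal tubule programme (chromosome 20, 44355699 to 44432845), stood at 6.21 and 6.29 on D25 and at 5.15 and 5.13 on D29. The change was -1.11 ± 0.07, with replicates far closer than the days (adjusted p = 0.00561, limma). Of the 7 endocytic receptors, their partners and HNF4 factors, 3 were called lower and 0 higher (edgeR 5 and 0), with a median of -0.65. Megalin (LRP2) stood at 8.27 and 8.23 on D25 and at 7.48 and 7.01 on D29, and the cubilin partner AMN fell by 0.65. Cubilin (CUBN) changed by -1.01 with a larger standard error (0.21, against 0.14 for LRP2) and was not called by limma (adjusted p = 0.0576) but was by edgeR and DESeq2. Among 11 metabolic enzymes, HAO2, a peroxisomal 2-hydroxyacid oxidase (4.28 and 4.31 on D25, 2.57 and 3.01 on D29), and AGXT2, a mitochondrial aminotransferase (-1.16), were called lower and 0 were called higher (edgeR 5 lower), with a median of -0.50.

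The distal nephron list showed the same direction. Of 19 genes of the loop of Henle, distal tubule and collecting duct, 6 were called lower and 0 higher (edgeR 8 and 0), with a median of -0.48. SLC12A1, the furosemide-sensitive cotransporter of the thick ascending limb (chromosome 15, 48178438 to 48304078), stood at 4.55 and 4.59 on D25 and at 2.31 and 2.48 on D29, a change of -2.18 ± 0.25 (adjusted p = 0.0129, limma). Its partner in that segment, the potassium channel KCNJ1, changed by -1.48, the claudins CLDN10 and CLDN16 by -1.34 and -1.12, and the factors TFCP2L1 and POU3F3 by -1.53 and -0.57. TFCP2L1 fell by more than HAO2 (-1.51), the smallest of the largest falls that were named. It is not among them because it lacked a fall in set 1. GATA3, a collecting duct factor, changed by 0.02 (adjusted p = 0.967, limma).

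Further epithelial genes were among the 12 largest falls. APOB, the structural apolipoprotein of secreted lipoproteins (chromosome 2, 21001429 to 21044073), stood at 5.62 and 5.49 on D25 and at 2.38 and 2.46 on D29. This was the largest of the 12, a change of -3.13 ± 0.45 (adjusted p = 0.0226, limma), although its D21 libraries lay far apart at 5.64 and 3.89. APOA1, the main protein of high-density lipoprotein, changed by -1.70, the phosphate carrier SLC34A2 by -1.95, the monocarboxylate carrier SLC5A8 by -1.86, the bile acid transporter subunit SLC51B by -1.84 and the membrane protease TMPRSS4 by -1.59. The adjusted p of these 5 genes ran from 0.00786 to 0.0103 (limma).

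**Figure D1:**
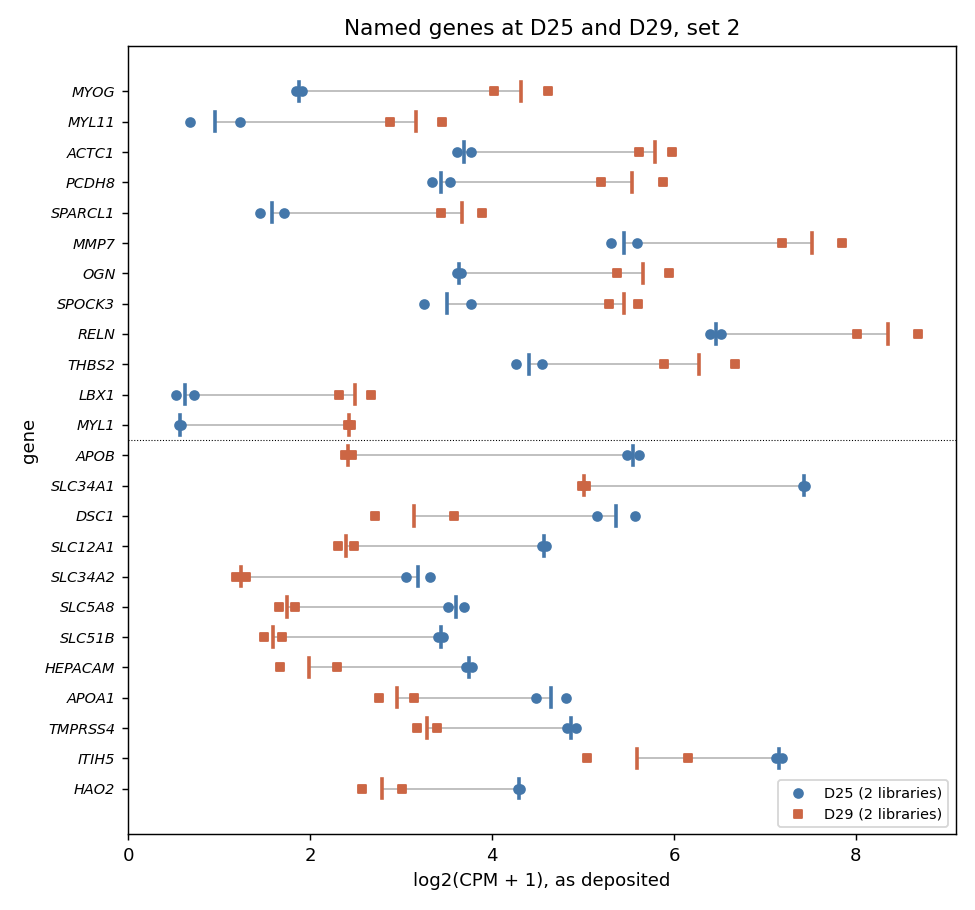
The 12 largest rises (above the dotted line) and the 12 largest falls (below it) in set 2, among called genes with the same sign in set 1. Points are the 2 libraries of each day and short bars their means, on the deposited log2(CPM + 1) scale. In every gene shown the D25 and D29 libraries do not overlap, as the rule that named the genes requires. The D29 libraries of DSC1, HEPACAM and ITIH5 lie further apart than those of SLC34A1 or MYL1.

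Podocyte genes had lower means on D29, with few calls. Over 3 lists of slit diaphragm and foot process genes, podocyte transcription factors and secreted proteins, 35 of 37 measured members had a lower mean on D29. Their medians were -0.64, -0.68 and -0.59, but limma called 1 of 21, 0 of 6 and 0 of 10 lower, and edgeR 4, 0 and 2. The member called lower by limma is EZR, the ezrin that links membrane to actin, with 8.50 and 8.61 on D25 and 8.14 and 7.77 on D29 (-0.60, adjusted p = 0.0479). TRPC6, a calcium channel of the foot process, was called higher by 0.53 (adjusted p = 0.0419, limma).

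Podocyte genes differed between the D29 replicates. NPHS1, which encodes the slit diaphragm protein nephrin (chromosome 19, 35825372 to 35869287), stood at 9.53 and 9.49 on D25, at 8.90 in D29 replicate 1 and at 7.75 in D29 replicate 2. Its change of -1.18 ± 0.30 had an adjusted p of 0.096 with limma and of 0.0352 with edgeR. Both D29 values lay below D25, but the replicates differed from each other by more than replicate 1 differed from D25. Synaptopodin (SYNPO) changed by -0.73 (adjusted p = 0.162, limma) and the master factor WT1 by -0.69 (adjusted p = 0.158, limma). Without D29 replicate 2 these 3 changes were -0.61 for NPHS1, -0.32 for SYNPO and -0.30 for WT1. Without D29 replicate 1 they were -1.76, -1.14 and -1.09. The medians of the slit diaphragm, factor and secreted lists were -0.18, -0.25 and -0.11 without replicate 2, and -1.01, -1.12 and -0.98 without replicate 1. In these refits D29 is the 1 remaining library, assumed to vary like the D21 and D25 libraries. They leave out the disagreement between the D29 replicates, so only the size of the change is given.

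The summed level of the slit diaphragm list was 13641 and 13945 CPM in the D25 libraries, 11713 CPM in D29 replicate 1 and 6440 CPM in D29 replicate 2. In the same order, the summed level of the 10 fibrillar collagens was 11371, 11859, 14471 and 18089 CPM, and that of the 22 neuronal genes 869.9, 1057, 1111 and 1656 CPM. The library lowest in podocyte genes was thus the highest in collagen and neuronal genes. Its part in the other changes was not tested beyond leaving it out. Of the 12 largest falls, 3 genes are highest in podocyte-like cells. DSC1, a desmosomal cadherin, stood at 5.57 and 5.15 on D25 and at 3.58 and 2.71 on D29 (-2.22 ± 0.27, adjusted p = 0.0137, limma). HEPACAM, an adhesion molecule, stood at 3.78 and 3.72 on D25 and at 2.30 and 1.67 on D29, and ITIH5, a hyaluronan-binding serum protein relative, at 7.19 and 7.12 and at 6.15 and 5.04. That the D29 values of these 3 genes lay below the D25 values in both replicates follows from the rule that named them. Tubule lists differed in how far they moved with this library. The median of the proximal transporters was -0.52 without D29 replicate 2 and -0.57 without replicate 1, and that of the distal genes -0.52 and -0.40. The endocytic receptors and HNF4 factors went from -0.54 without replicate 2 to -0.90 without replicate 1, and LRP2 from -0.77 to -1.23. The summed level of the proximal transporters was 1059 and 1096 CPM on D25, 951.4 CPM in D29 replicate 1 and 566.3 CPM in replicate 2, so that by this measure too replicate 2 was the lowest.

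**Figure D2:**
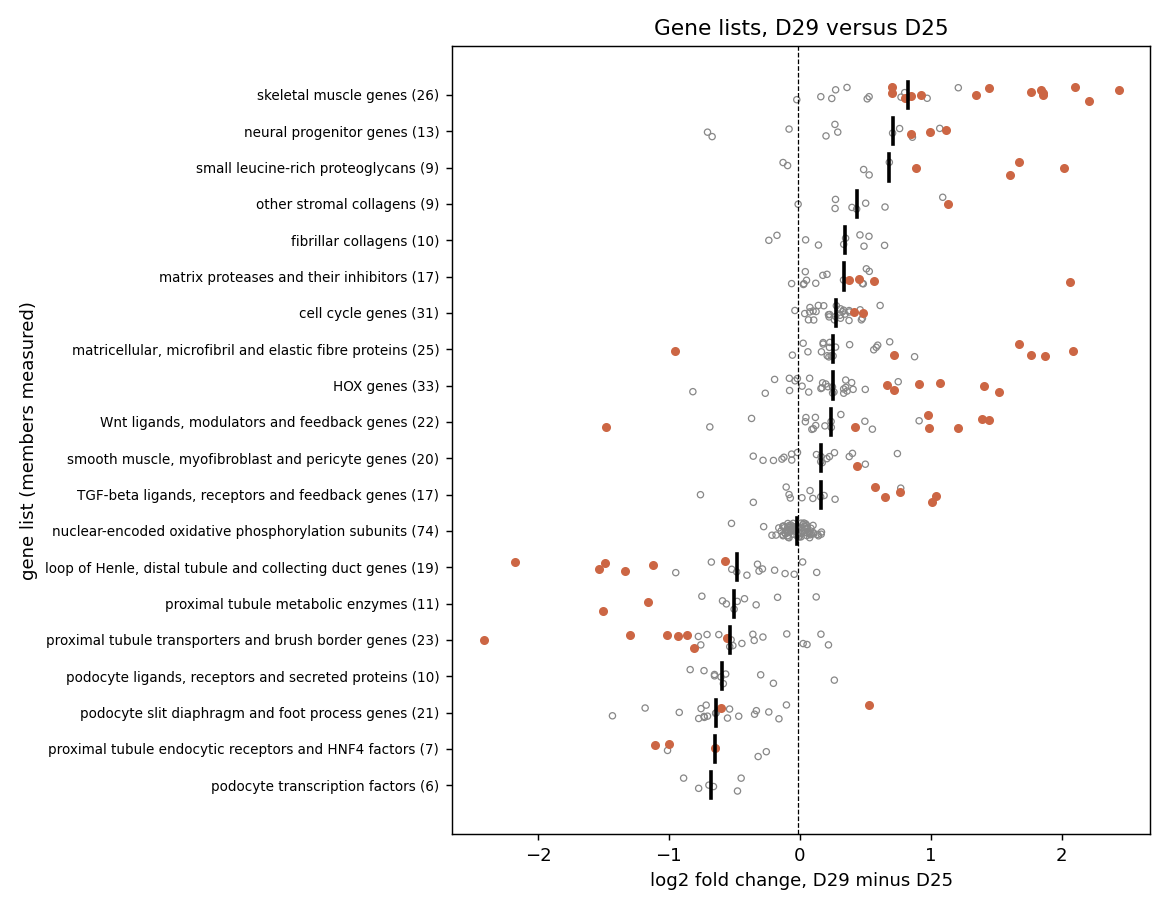
Log2 fold change from D25 to D29 of each measured member of 20 gene lists, with the number measured in parentheses. Filled points are genes called by limma, open points are not called, the black bar is the median, and the dashed line is the median of all genes (-0.01). Skeletal muscle (median 0.83) and podocyte transcription factors (-0.68) have the highest and lowest medians, yet 14 muscle genes and 0 of the podocyte factors were called.

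Matrix genes were called in some families and not in others. Among 9 small leucine-rich proteoglycans, which coat collagen fibrils, 4 were called higher and 0 lower. OGN, or osteoglycin (chromosome 9, 92383268 to 92404696), stood at 3.66 and 3.61 on D25 and at 5.38 and 5.94 on D29 (2.02 ± 0.26, adjusted p = 0.0156, limma). PRELP rose by 1.67, asporin (ASPN) by 1.61 and decorin (DCN) by 0.89, while lumican (LUM) changed by 0.49 and was not called (adjusted p = 0.254, limma). In the D24 cells described below, PRELP was highest in glial-like cells, at 6.28 CPM, with 2.77 CPM in stromal-like cells. OGN and ASPN were highest in stromal-like cells. Of 25 matricellular, microfibril and elastic fibre proteins, 5 were called higher and 1 lower. SPARCL1, a counter-adhesive protein, stood at 1.71 and 1.45 on D25 and at 3.44 and 3.89 on D29, and THBS2, an anti-angiogenic thrombospondin, at 4.55 and 4.26 and at 5.89 and 6.67. Elastin (ELN) rose by 1.77, the calcification inhibitor MGP by 1.68 and fibrillin 2 (FBN2) by 0.72. Without D29 replicate 2, ELN rose by 1.33 and MGP by 1.24. CCN2, a target of YAP and TGF-β signalling, was the member called lower (-0.95, adjusted p = 0.046, limma).

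The fibrillar collagens had 0 of 10 members called by limma (edgeR 4 higher), with a median of 0.34. COL1A1 stood at 11.57 and 11.68 on D25 and at 11.96 and 12.35 on D29, a change of 0.53 (adjusted p = 0.187, limma). From D21 to D25 the median of this list was 0.87. Without D29 replicate 2, the library with the most collagen, the D29 minus D25 median was 0.26, and that of the small proteoglycans was 0.63. COL14A1, a collagen of fibril surfaces, was the 1 of 9 other stromal collagens called higher, by 1.13. Of 17 matrix proteases and their inhibitors, 4 were called higher and 0 lower. MMP7, or matrilysin (chromosome 11, 102520508 to 102530750), stood at 5.59 and 5.30 on D25 and at 7.19 and 7.84 on D29 (2.07 ± 0.25), and MMP2, MMP11 and TIMP2 rose by 0.57, 0.45 and 0.38. The crosslinking enzyme LOX rose by 0.88 and was the 1 of 14 crosslinking genes called. In the basement membrane list 2 of 17 genes were called higher, and both encode chains of the same collagen IV network. COL4A3 stood at 3.80 and 3.63 on D25 and at 4.63 and 4.74 on D29, and COL4A4, its neighbour on the opposite strand, at 4.75 and 4.66 and at 5.43 and 5.63. COL4A5, the third chain of that network, changed by 0.04 (adjusted p = 0.857, limma). In the D24 cells described below, COL4A3 and COL4A4 were highest in tubule-like cells, at 2.85 and 10.9 CPM. Podocyte-like cells came next, at 0.71 and 6.14 CPM.

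Contractile genes of smooth muscle and pericytes did little between D25 and D29. Of 20 measured, 1 was called higher, the tropomyosin TPM2 (0.43), and the median was 0.16, or 0.09 without D29 replicate 2. In the D24 cells described below, TPM2 was highest in muscle-like cells, at 3500 CPM, with 687 CPM in stromal-like cells. The smooth muscle actin ACTA2 stood at 6.77 and 6.82 on D25 and at 6.93 and 7.18 on D29 (adjusted p = 0.566, limma). PDGFRA, the stromal PDGF receptor, stood at 7.64 and 7.61 on D25 and at 7.98 and 8.12 on D29 and was called by edgeR (adjusted p = 0.018) but not by limma (adjusted p = 0.0592). Fibronectin (FN1) changed by 0.22 (adjusted p = 0.504, limma), or by 0.01 without D29 replicate 2 and 0.44 without replicate 1.

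In the TGF-β list of 17 genes, 5 were called higher and 0 lower. They are the activin subunit INHBA (1.04), the feedback gene PMEPA1 (1.01), the ligands TGFB2 (0.76) and TGFB3 (0.66), and the latency protein LTBP1 (0.57). TGFB1 stood at 5.18 and 5.22 on D25 and at 5.43 and 5.29 on D29 and was not called (adjusted p = 0.49, limma). In the Wnt list of 22, 6 were called higher and 1 lower. The antagonists SFRP2, DKK1 and WIF1 rose by 1.45, 1.39 and 0.98, the agonist RSPO3 by 1.21, and the target genes LEF1 and NKD1 by 0.99 and 0.42. Without D29 replicate 2, SFRP2, DKK1 and RSPO3 rose by 0.99, 0.99 and 0.98. RSPO1, a related agonist, fell from 3.87 and 3.86 on D25 to 2.64 and 2.13 on D29 (-1.48, adjusted p = 0.0137, limma), opposite to RSPO3. In the D24 cells described below, RSPO1 was highest in podocyte-like cells, at 13.9 CPM, with 4.66 CPM in stromal-like cells. Of 18 growth factor genes 2 were called, both higher. IGF1 (chromosome 12, 102395874 to 102481744) stood at 4.53 and 4.34 on D25 and at 5.80 and 5.64 on D29 (1.29 ± 0.11, adjusted p = 0.00786, limma), and the hepatocyte growth factor HGF rose by 1.52. BMP7, a survival factor of nephron progenitors, fell by 0.62 and was the 1 of 14 BMP list genes that limma called, where edgeR called 3 higher and 1 lower.

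Some posterior HOX genes rose. Of 33 HOX genes measured, 6 were called higher and 0 lower (edgeR 10 higher), against 1.25% (limma) and 3.02% (edgeR) called higher over all genes. The median was 0.25, or 0.08 without D29 replicate 2. The calls were HOXD10 (1.52), HOXA11 (1.41), HOXC10 (1.07), HOXC11 (0.91), HOXD11 (0.72) and HOXA10 (0.67), all of paralogue groups 10 and 11. HOXD10 stood at 0.82 and 0.94 on D25 and at 2.27 and 2.53 on D29. Antisense transcripts lie in these clusters, and the sources used here do not give whether reads were counted by strand. SIX2, the factor of nephron progenitor renewal, stood at 0.68 and 0.76 on D25 and at 1.82 and 1.90 on D29 and was the 1 of 19 progenitor and early nephron genes called higher by limma (edgeR 3 higher and 2 lower). In the D24 cells SIX2 was found at 9.97 CPM (6.32 to 15.0) in muscle-like cells and at 3.92 CPM (3.13 to 4.85) in stromal-like cells, the next class.

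Neural progenitor genes had 3 calls and neuronal genes 1. Of 13 neural progenitor genes, ZIC1 (1.12), ZIC2 and LMX1A (0.85) were called higher and 0 lower (edgeR 5 and 0). Over all genes tested, 1.25% were called higher by limma and 3.02% by edgeR. The median of the progenitor list was 0.71, or 0.36 without D29 replicate 2. Of 22 neuronal genes, GAD1, which makes the transmitter GABA, was the 1 called higher by limma (edgeR 6 higher and 1 lower), from 0.53 and 0.32 on D25 to 1.84 and 1.80 on D29. The median of the neuronal list was 0.24, or 0.03 without D29 replicate 2, and in set 1 it was -0.42, with 3 genes higher and 18 lower. Of the 12 largest rises, RELN, the secreted guidance protein reelin, stood at 6.40 and 6.52 on D25 and at 8.01 and 8.69 on D29. PCDH8, a protocadherin, stood at 3.34 and 3.54 and at 5.20 and 5.88. SPOCK3, a testican, rose by 1.94, and LBX1, a homeobox factor of migrating muscle precursors and of dorsal spinal interneurons, rose by 1.87. These 4 genes, like all of the 12, were chosen among genes whose days do not overlap.

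Other lists had few calls or 0. The lists were chosen with earlier results of these data known, so they do not bound the change. Cell cycle genes had 2 of 31 called higher, UBE2C (0.48) and KIF20A (0.41), and edgeR called 8, while 30 of 31 had a higher mean. Among 22 interferon-type genes 3 were called higher, IFI44 (1.25), IFI44L (1.10) and IFI6, and 0 lower (edgeR 4 higher and 1 lower). The list was mixed, with 14 means higher and 8 lower, among the latter OAS1 (-0.71, not called by limma). In set 1 its members were 11 higher and 10 lower. In the endothelial list 2 of 16 were called lower, the claudin CLDN5 (-1.15) and the adhesion molecule ESAM (-0.48). Its median was 0.10, with 9 means higher and 7 lower, so the list as a whole did not fall. In the D24 cells described below, CLDN5 was found at 563.95 CPM in podocyte-like cells, more than in any other class. ESAM was highest in tubule-like cells, at 38.8 CPM, with 13.7 CPM in podocyte-like cells. Mitochondrially encoded MT-ND6 (-1.38) and MT-ND1 (-0.49) were called lower of 13, and nuclear copies of these genes may share reads. With limma 0 heat shock, leukocyte and complement genes were called, where edgeR called 3 complement genes higher and 2 lower, 1 leukocyte gene lower and 0 heat shock genes. Of the immediate early genes 0 of 20 were called by limma or edgeR, with a median of -0.04. FOSB, whose replicates differed, stood at 5.98 and 4.74 on D25 and at 4.20 and 1.83 on D29 (adjusted p = 0.172, limma). The 76 cytosolic ribosomal protein genes had 0 calls, and 72 had a higher mean on D29 in set 2 while 0 of 76 did in set 1. Replication-dependent histone genes had 4 of 59 called higher, and 58 of 59 had a higher mean in set 2 against 9 of 58 in set 1.

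The D21 libraries place the change in the time course. The D25 libraries are shared between both steps, so that a high or low D25 value moves them in opposite directions, and the values are given side by side. Skeletal muscle genes had a median of -0.34 from D21 to D25 and of 0.83 from D25 to D29, and MYOG stood at 2.62 and 3.45 on D21, above its D25 values. In set 1, where the days have 1 library each, MYOG was higher at each step, with 1.88, 3.81 and 4.61 on D21, D25 and D29. ACTC1, with 4.25, 5.76 and 6.53, and MYH3, with 4.43, 5.56 and 6.64, did so too. The dip on D25 in set 2 was thus not seen for these 3 genes in set 1, where no test was possible. Fibrillar collagens and contractile genes had the reverse order, with medians of 0.87 and 0.52 from D21 to D25 and of 0.34 and 0.16 from D25 to D29. OGN was higher at each step in set 2 (1.03 and 0.31 on D21) and in set 1 (2.69, 4.93 and 6.29). HNF4A was lower at each step, from 6.94 and 6.90 on D21. SLC34A1 (7.14 and 6.48 on D21) and SLC12A1 (4.78 and 3.91 on D21) had no lower mean on D25 than on D21.

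**Figure D3:**
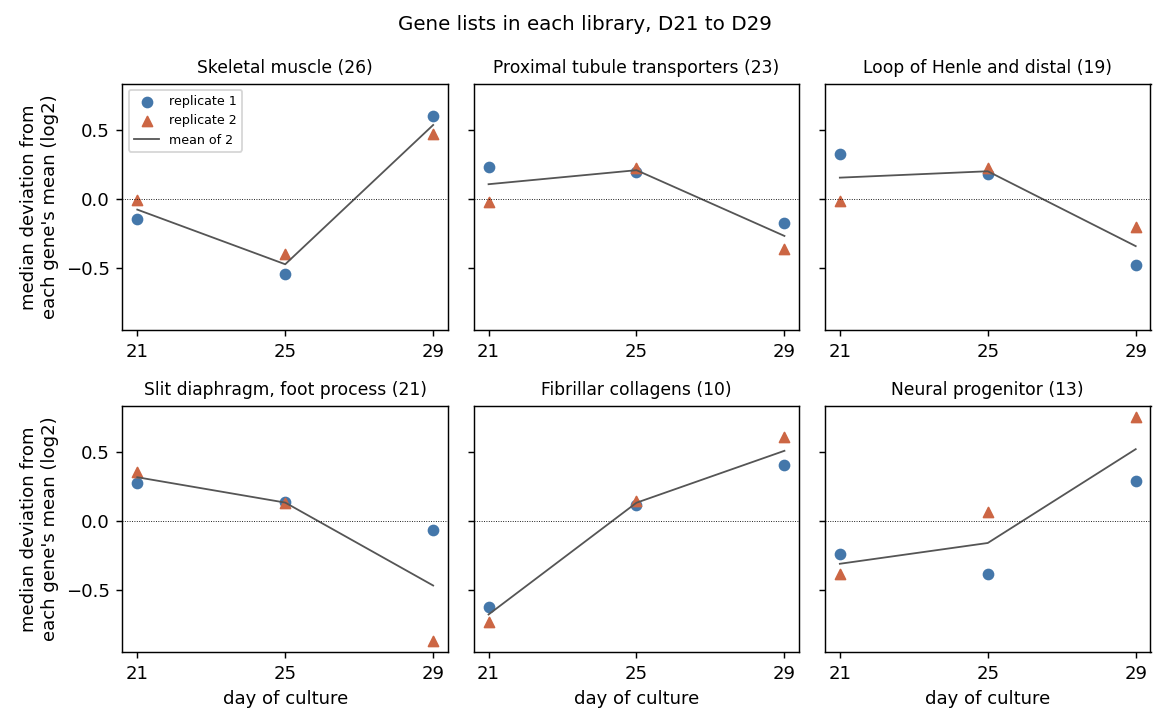
Median deviation of 6 gene lists from each gene's mean over the 6 set 2 libraries (log2), by day of culture. Circles and triangles are replicates 1 and 2, the line joins their means, and the number of measured genes is in the panel title. Muscle genes were lowest on D25, fibrillar collagens had the larger step before D25, and the slit diaphragm genes of D29 replicate 2 lay below all other libraries.

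A change of slope at D25 was tested as the step from D25 to D29 minus the step from D21 to D25. With limma 0 genes were called (2511 at an unadjusted p under 0.05, smallest adjusted p = 0.0566). With edgeR 33 genes were called with a positive difference (0.119% of those tested) and 111 with a negative one (0.401%). Of the 26 skeletal muscle genes 9 were called positive by edgeR, among them MYL11 (4.76), MYL1 (4.70) and MYOG (4.38). The negative calls include contractile genes, 5 of 20, such as the smooth muscle myosin MYH11 (-5.11) and ACTA2 (-2.57), and the tubule genes SLC34A1 (-3.05), KCNJ1 (-3.31) and APOB (-3.99), all on the scale of edgeR's log2 fold change.

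The direction of the calls was read again in set 1. Of the 574 called genes 523 were listed there, and 468 (89.5%) had the same sign, against 55.7% of all 20115 genes listed in both tables. The share was 291 of 313 among the genes called higher and 177 of 210 among those called lower. Muscle genes had a higher D29 value in 20 of 22 members measured in set 1. Podocyte slit diaphragm genes were lower in 19 of 21, as were all 6 podocyte factors. NPHS1 went from 8.23 to 7.68 there. The tubule lists, all with negative medians in set 2, were mixed in set 1. Among the endocytic receptors and HNF4 factors 4 were higher and 3 lower in set 1 (median 0.03). The same counts were 6 and 13 among the proximal transporters (median -0.09), 4 and 6 among the metabolic enzymes, and 7 and 9 among the distal genes. SLC34A1 went from 6.30 to 5.74 in set 1 and SLC12A1 from 3.04 to 2.95, against changes of -2.41 and -2.18 in set 2. APOB went from 4.35 to 2.52 in set 1. The sign of these 3 genes in set 1 was part of the rule that named them and is no check of it. With 1 library a day set 1 has no test, and the sets differ in collection, instrument and normalisation, which cannot be told apart.

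**Figure D4:**
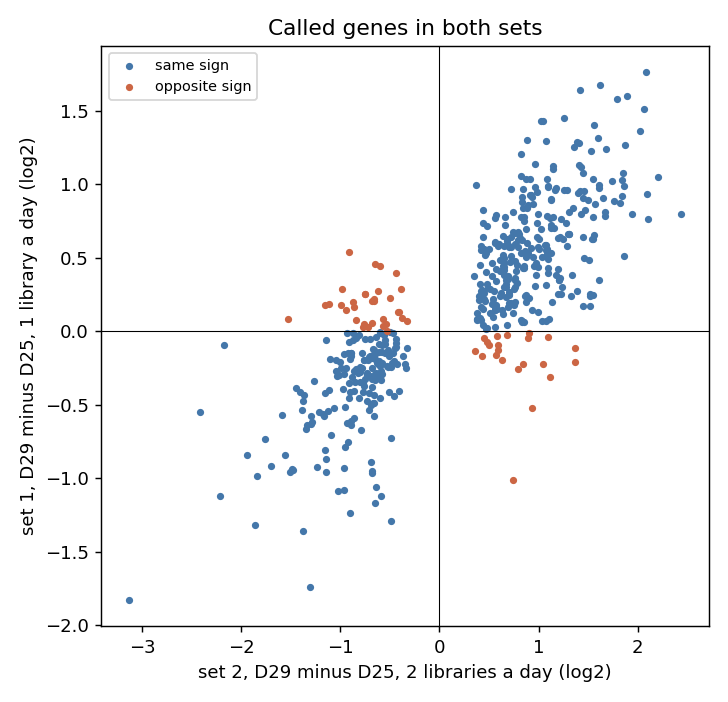
Change from D25 to D29 in set 2 (horizontal, 2 libraries a day) and in set 1 (vertical, 1 library a day), both in log2 units, for the 523 called genes listed in both tables. Blue points have the same sign (468) and orange points the opposite sign (55).

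The D24 control library shows in which cells these transcripts were found 1 day before D25. It was made from whole wells scraped from the plate, whereas the bulk RNA came from isolated spheroids, so its class shares need not be those of the bulk samples. Of its 11906 cells with over 500 genes, classes were set by at least 4 of 8 marker genes detected. This gave 1234 podocyte-like cells (10.4%), 494 tubule-like (4.15%), 2977 stromal-like (25.0%), 1527 neuronal-like (12.8%), 631 glial-like (5.30%) and 258 muscle-like cells (2.17%). A further 4785 cells (40.2%) were in no class, and among them 1022 met the rule for several classes and were set aside as possible doublets. The median number of own markers detected was 7 in podocyte-like, 5 in stromal-like and 7 in muscle-like cells, and 0 to 2 markers of any other class. The gate sets a range, since 1268 of the stromal-like and 354 of the glial-like cells lay at the limit of 4 markers. Median UMIs per cell ran from 4994.5 in podocyte-like to 11140 in tubule-like cells. Levels are the UMIs of a gene scaled to all UMIs of its class (CPM), and the 95% intervals, exact Poisson, hold no error but that of counting. There is 1 library and no test. Genes used as markers were left out.

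MYL1 was found at 1846 CPM (1791 to 1902) in muscle-like cells and at 1.14 CPM or less in the other classes. SLC34A1 was found at 74.0 CPM (68.5 to 79.8) in tubule-like cells and at 0.50 CPM or less in the other classes in which it had a UMI. These classes made up 2.17% and 4.15% of the cells of that library. HAO2 (28.6 CPM), SLC5A8 (19.3 CPM) and APOB (10.8 CPM) were also highest in tubule-like cells, as was APOA1 (174 CPM), with 55.2 CPM in glial-like cells. ITIH5 (231 CPM), DSC1 (21.5 CPM) and HEPACAM (12.1 CPM) were highest in podocyte-like cells. Among the rises, OGN (73.9 CPM), SPOCK3 (72.4 CPM), SPARCL1 (6.87 CPM) and THBS2 (6.55 CPM) were highest in stromal-like cells, where RSPO3 (369 CPM), SFRP2 (325 CPM), IGF1 (258 CPM) and HGF (42.9 CPM) were highest too. MMP7 rose in bulk although it was highest in tubule-like cells (179 CPM), with 29.0 CPM in stromal-like cells. For PCDH8 (7.78 CPM in glial-like and 5.36 CPM in neuronal-like cells) and RELN (7.06 CPM in stromal-like and 6.50 CPM in muscle-like cells) the intervals of the highest 2 classes overlapped. LBX1 was found at 7.56 CPM in stromal-like cells and at 23.2 CPM in the cells of no class.

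**Figure D5:**
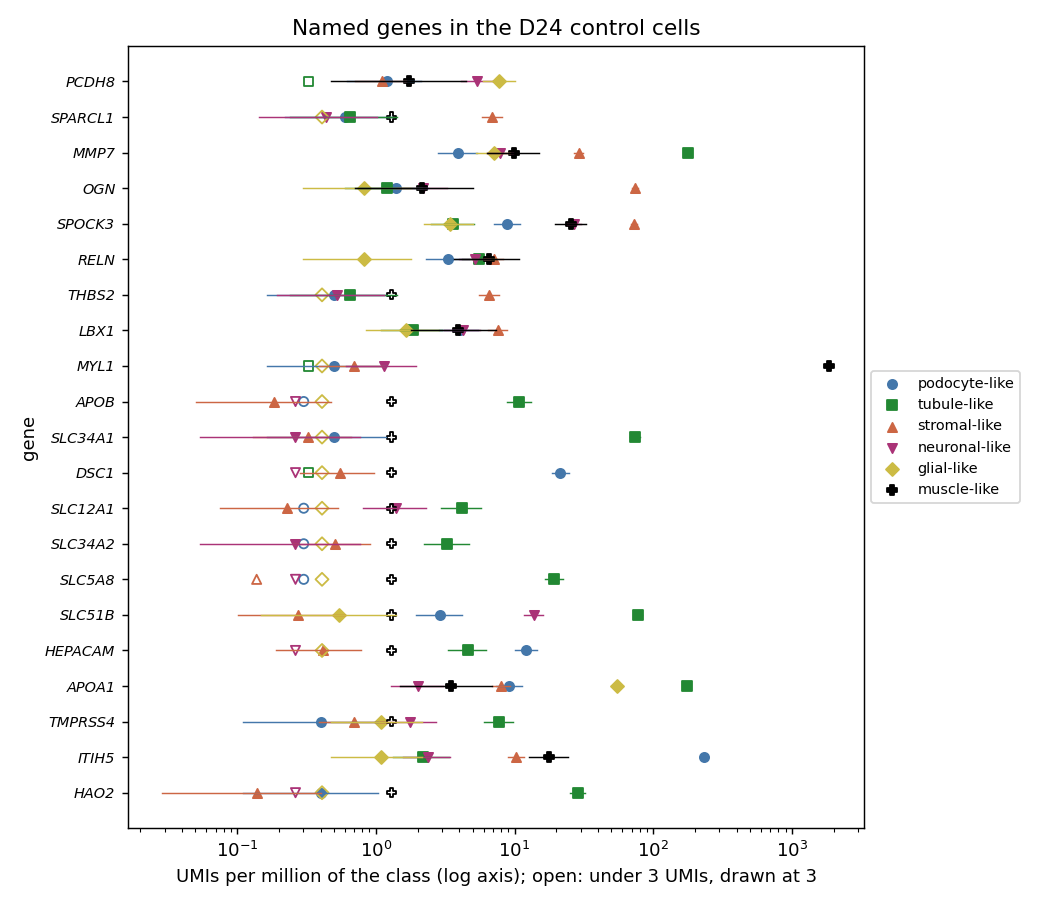
Level of 21 of the 24 largest rises and falls in the 6 cell classes of the D24 control library, as CPM of the class on a log axis, with exact Poisson 95% intervals. Open symbols had fewer than 3 UMIs and are drawn at the value of 3. MYL1 stands apart in muscle-like cells, and SLC34A1, HAO2 and SLC5A8 in tubule-like cells. MYOG, MYL11 and ACTC1 are left out because they served as class markers.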

How the data were processed

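Bulk RNA of untreated organoids was measured in 6 set 2 and 3 set 1 libraries. Total RNA libraries were aligned by the authors with STAR 2.7.8a to GRCh38 and reads were counted per gene with HTSeq. The deposited log2 values are log2(CPM + 1) after 0.5 was added to each count, as read from the values, which gave whole reads for 100% of them (tolerance 0.01). Per the labels the single-cell UMI counts were made with Cell Ranger. Replicates are separate samples. The study describes independent experiments and biological replicates in general, but no source ties the 2 libraries of a day to separate cultures, so p-values measure only the spread between these samples.

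The log2 values of all 6 set 2 libraries were fitted with limma 3.58.1 in R 4.3.3 (1 mean per day, eBayes with a trend on the mean), and the D29 minus D25 contrast was adjusted by the Benjamini-Hochberg method over 27650 genes. edgeR 4.0.16 (quasi-likelihood, TMM) and DESeq2 1.42.0 were run on the recovered reads. Of the Ensembl IDs, 27240 matched a symbol, MYLPF being listed as MYL11. Positions are from GENCODE 44 (GRCh38). The gene lists and members were chosen with earlier results of these data known. The named genes are the 12 largest rises and 12 largest falls among called genes whose days do not overlap, with a mean of at least 1 on the higher day and the same sign in set 1, up to 4 members per list with the largest absolute change, 7 genes that the study names, and the largest second differences. Called members of a list beyond these 4 are named to complete its count. PAX7, TNNI1, NEB, LUM, GATA3, COL4A5 and MYH11 were chosen after their values were seen. Cells of the D24 control library with over 500 genes were classed by marker genes. Fits were tested on simulated data with the same spread on every day. That test does not cover the wider spread of the D29 libraries. Alternatives were other tools, scalings, filters and thresholds, and each library left out in turn. The TNFα libraries were not used here. Some genes are not reported here and were left out of the gene lists. No column of per-sample values in the tables was left unused.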

Additional observations from a re-analysis of the deposited data

How the results depend on the processing

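The directions of the 24 largest rises and falls were the same under all 16 alternatives, which for the 6 that leave out a library follows from choosing genes whose days do not overlap. The counts moved. Against 574 called genes, 187 of them with a fold of at least 2, edgeR called 1336 (505), DESeq2 1278 (382), limma without a trend on the mean 209 (106) and limma on the 4 libraries of D25 and D29 alone 169 (98). Median centring gave 894 and a mean of at least 1 gave 1122. Without the added 1, 340 genes had a fold of at least 2, and with voom weights 318. A limit of 0.01 on the adjusted p left 22 genes and a limit of 0.1 gave 1411. With 1 library left out limma called 0 to 2014 genes (0 to 572 with a fold of at least 2) and edgeR 207 to 3281. The share with the same sign in set 1 was 83.4% with DESeq2, 95.4% for genes with a fold of at least 2, and 78.5% to 97.1% with 1 library left out, and it could not be given without either D25 library, where limma called 0 genes. For the change of slope, where limma called 0, the count was 17 without the added 1, 144 with edgeR, 245 with DESeq2, 11 with voom weights, 2 without a trend, 16 after median centring, 20 with a mean of at least 1 and 0 to 118 with 1 library left out. The edgeR refits with libraries left out, and the genes named from its change of slope, were added after seeing the data.

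With the replicate number as a replicate block, 1118 genes were called, 82.5% of them with the same sign in set 1, and 2 for the change of slope. The labels do not say that a number marks a shared culture, and same-numbered libraries deviated together with r of 0.161 (D21 and D25), 0.0976 (D21 and D29) and 0.296 (D25 and D29) over 17069 genes. The causes of these shifts were not tested.

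Of the other named genes 5 changed sign, none of them called. With 1 library left out CD74 ran from -0.00603 to 0.180, DCT from -0.112 to 0.372, DNAJB9 from -0.556 to 0.0843, MT1E from -0.968 to 0.197 and MT2A from -0.581 to 0.0222. CD74 was also -0.00531 without D29 replicate 2. The median of the adipocyte list was -0.077 with a mean of at least 1. NPHS1, with unequal D29 replicates, was called by edgeR and by limma on genes with a mean of at least 1. It was not called in the main limma fit or by DESeq2.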
